A study of Homo sapiens with 9 samples.

Results

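The genes described here are 44 genes of the response to low oxygen and of glycolysis, measured in Flip-In-293 cells after lentiviral infection with 1 of 3 short hairpin RNAs. They were taken by gene symbol from the array annotation (older symbols HIG2 for HILPDA, ERO1L for ERO1A, JMJD1A for KDM3A and JMJD2B for KDM4B), out of 19426 genes with at least 1 probe set of a single gene. All 44 passed the filter on dim probe sets, as did 16748 genes in all, and 856 of their 959 probe sets were kept. The members were chosen by symbol, but with the gene level differences from control on these same arrays already known. The set was thus in effect selected on those differences, which are given below as a description of these genes and support nothing further.

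Flip-In-293 cells derive from HEK293, an established line from human embryonic kidney, and carry an integrated site for inserting transgenes. Cells infected with lentivirus for a CPSF3 hairpin, an RBFOX2 hairpin or a non-silencing hairpin (control) were cultured for 10 days, and total RNA from 3 samples per group was read on exon arrays. CPSF3 is the endonuclease of mRNA 3' end cleavage, and RBFOX2 regulates alternative exons. The labels disagree on whether the 3 samples of a group are biological or technical replicates, and every p-value below therefore reflects only how far these arrays spread, which may be technical. A gene level is the median log2 signal of the gene's kept probe sets, a difference is hairpin minus control in log2 units with its SE, and where a pair of differences is given the CPSF3 hairpin comes before the RBFOX2 hairpin. Adjusted p-values are from limma with Benjamini-Hochberg adjustment over all genes tested. CPSF3 itself was at 9.60, 9.27 and 9.27 under its own hairpin and at 9.33, 9.29 and 9.80 in control, a difference of -0.10 ± 0.16 (limma adjusted p = 0.752). The transcript does not bear out the label, so these are called the arrays labelled CPSF3 knockdown, or the CPSF3-labelled group, and the directions given for them depend on that label. RBFOX2 was at 8.95, 8.83 and 9.05 under its hairpin and at 9.66, 9.54 and 9.38 in control, a difference of -0.58 ± 0.12 that missed the threshold (limma adjusted p = 0.0617). Of 6 genes known from HEK293 cells (neuronal genes, epithelial genes and VIM), the control means ran from 8.05 for NEFM to 11.34 for VIM. NEFL (-0.87 ± 0.12), VIM (-1.05 ± 0.12) and KRT8 (-0.57 ± 0.13) were also called lower in the CPSF3-labelled group and 0 of the 6 in the RBFOX2 knockdown; their part in the results below was not tested. On all their probe sets, blood cell markers were between 4.70 and 7.03 in control, fibroblast markers between 4.87 and 9.08 and endothelial markers between 5.52 and 8.42. The HEK293 genes were between 7.65 and 11.14 on that measure, so the ranges overlap. Of 8 fibroblast, 5 blood cell and 7 endothelial markers measured, 0 were called in either group. Over all genes 4.38% were called lower and 10.0% higher in the CPSF3-labelled group, and 0.143% and 0.0299% in the RBFOX2 knockdown. The counts of 0 in the RBFOX2 knockdown are thus near the share of all genes and say little about these markers.

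Cells sense oxygen through the EGLN prolyl hydroxylases, which mark the alpha subunits of hypoxia-inducible factor (HIF) for destruction by the VHL ubiquitin ligase while oxygen is present. When oxygen is short, the alpha subunit is stable, pairs with ARNT and binds short DNA elements near genes for glucose uptake, glycolysis, blood vessel growth, collagen modification and removal of mitochondria. Most glycolytic enzymes are also made in abundance in well-oxygenated cultured cells.

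On the arrays labelled CPSF3 knockdown, 21 of the 44 genes were lower than in control and 0 were higher (limma, adjusted p under 0.05 over 16748 genes), where 4.38% of all genes were called lower and 10.0% higher. The 21 included the hormone STC1, the lipid droplet protein HILPDA, the repressor BHLHE40, the collagen enzymes P4HA1 and LOX, the enolase ENO2 and the glucose transporter SLC2A3, with folds between 1.27 and 5.21. The median difference over the 44 genes was -0.39 on the log2 scale, beside 0.01 over all genes. In 28 of the 44 all 3 arrays lay below all 3 control arrays, against 13.2% of all genes. On the RBFOX2 knockdown arrays 6 of the 44 were called lower (HILPDA, ENO2, LOX, SLC2A3, ALDOC and PGK1) and 0 higher, against 0.143% and 0.0299% of all genes, with a median of -0.31 beside 0.03. That count of 6 ran from 0 to 17 when single arrays were left out. The 17 came without control array 3, where 369 of all genes were called lower and 1177 higher. In 24 genes all 3 RBFOX2 knockdown arrays lay below control, against 7.05% of all genes. In 1 gene, PLOD1, they lay above it, beside 1184 of all 16748 genes. Both comparisons share the control arrays, and these shares describe a set chosen with such differences known. In bulk RNA, fewer cells expressing a gene and less RNA per cell cannot be told apart.

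**Figure D1:**
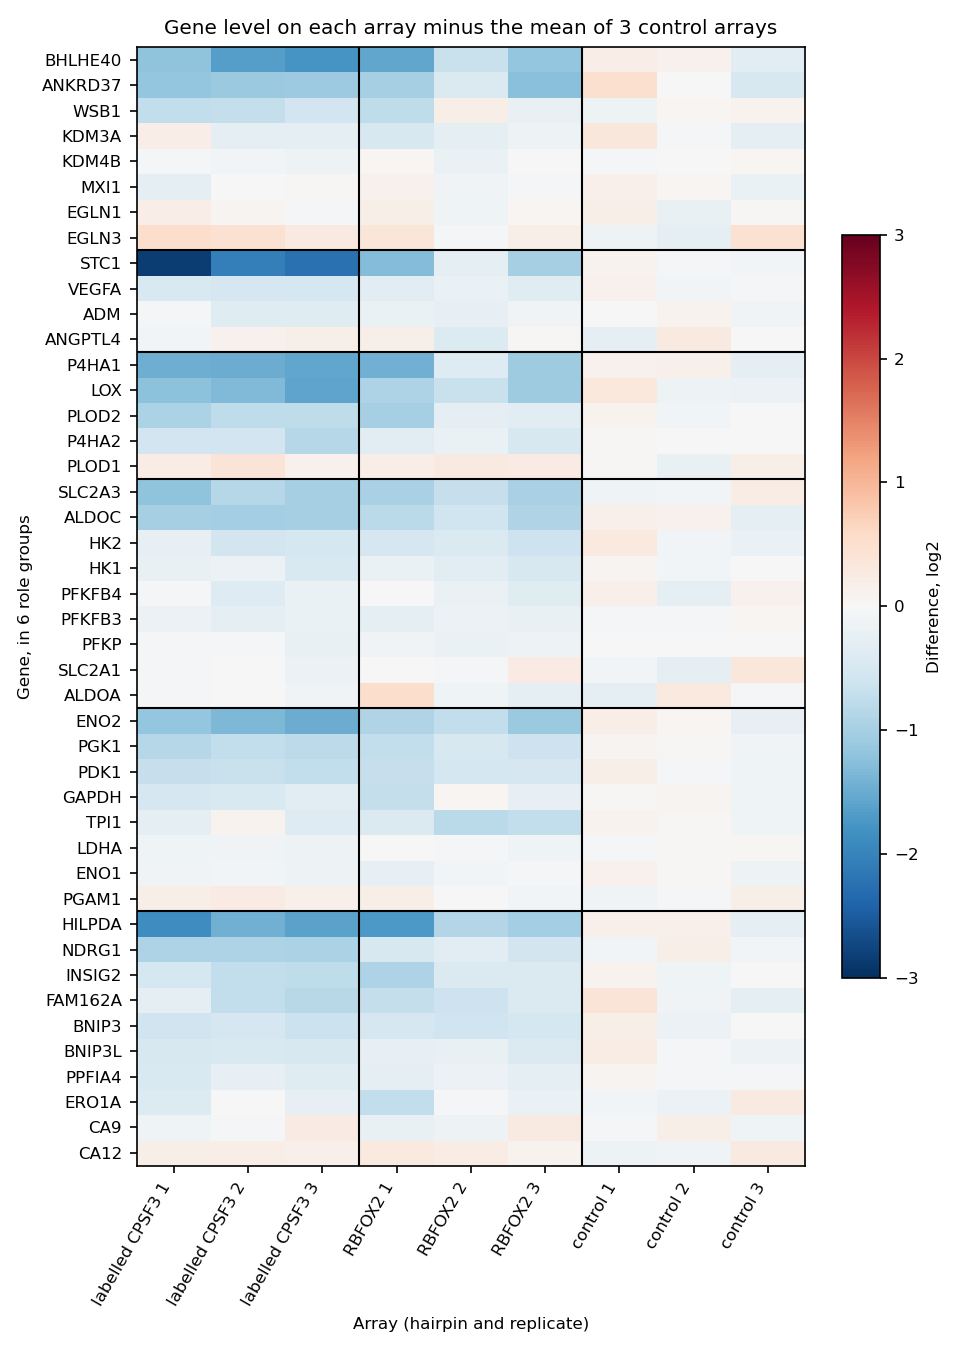
Log2 gene level of each of the 44 genes on each of 9 arrays minus the mean of the 3 control arrays (blue, lower; red, higher), in 6 role groups separated by lines. STC1, HILPDA, BHLHE40 and P4HA1 are darkest on the arrays labelled CPSF3 knockdown, and RBFOX2 knockdown array 2 is paler than arrays 1 and 3 of its group for most of these genes.

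The DNA element bound by HIF has the core ACGTG or GCGTG, and promoters are shown to let these letters be seen in the 6 called members with the smallest p among those that have a window. RefSeq windows (GRCh38.p14) from 250 bases before to 50 after the transcription start were available for 38 members; BNIP3L, HILPDA, NDRG1, SLC2A3, STC1 and VEGFA had none. Each sequence is 5′ to 3′ on the gene's strand, with every match to the core on either strand in capitals.
ENO2, chr12:6914330-6914629, plus strand: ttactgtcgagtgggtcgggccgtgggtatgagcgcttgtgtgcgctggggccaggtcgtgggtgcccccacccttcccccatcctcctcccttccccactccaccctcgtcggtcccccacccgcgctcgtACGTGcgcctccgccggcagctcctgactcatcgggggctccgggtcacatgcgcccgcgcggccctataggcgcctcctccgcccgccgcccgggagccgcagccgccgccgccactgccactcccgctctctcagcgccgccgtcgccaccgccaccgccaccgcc
LOX, chr5:122078210-122078509, minus strand, the window with most matches of 3: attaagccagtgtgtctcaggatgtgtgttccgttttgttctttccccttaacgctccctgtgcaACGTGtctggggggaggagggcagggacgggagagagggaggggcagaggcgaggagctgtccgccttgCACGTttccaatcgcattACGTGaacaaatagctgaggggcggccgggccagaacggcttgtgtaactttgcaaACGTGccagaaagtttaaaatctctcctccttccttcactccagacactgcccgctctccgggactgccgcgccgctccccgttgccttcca
ALDOC, chr17:28576846-28577145, minus strand: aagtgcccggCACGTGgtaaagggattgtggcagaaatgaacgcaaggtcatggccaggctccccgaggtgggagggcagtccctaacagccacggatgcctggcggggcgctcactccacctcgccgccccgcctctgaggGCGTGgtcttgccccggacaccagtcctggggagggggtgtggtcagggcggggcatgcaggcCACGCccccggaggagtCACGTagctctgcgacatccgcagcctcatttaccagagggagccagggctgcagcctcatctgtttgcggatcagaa
BHLHE40, chr3:4979187-4979486, plus strand: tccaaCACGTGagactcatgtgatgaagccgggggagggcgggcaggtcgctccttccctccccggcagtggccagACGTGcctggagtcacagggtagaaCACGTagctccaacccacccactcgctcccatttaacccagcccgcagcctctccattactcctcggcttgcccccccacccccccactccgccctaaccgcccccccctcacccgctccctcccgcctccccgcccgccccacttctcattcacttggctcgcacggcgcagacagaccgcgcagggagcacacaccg
PGK1, chrX:78103998-78104297, plus strand: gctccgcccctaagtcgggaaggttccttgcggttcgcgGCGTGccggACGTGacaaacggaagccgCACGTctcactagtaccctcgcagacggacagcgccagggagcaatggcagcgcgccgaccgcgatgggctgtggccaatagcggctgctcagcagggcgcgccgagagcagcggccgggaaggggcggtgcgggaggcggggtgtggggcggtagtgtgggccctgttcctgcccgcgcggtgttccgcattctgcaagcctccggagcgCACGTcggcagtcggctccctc
P4HA1, chr10:73096817-73097116, minus strand: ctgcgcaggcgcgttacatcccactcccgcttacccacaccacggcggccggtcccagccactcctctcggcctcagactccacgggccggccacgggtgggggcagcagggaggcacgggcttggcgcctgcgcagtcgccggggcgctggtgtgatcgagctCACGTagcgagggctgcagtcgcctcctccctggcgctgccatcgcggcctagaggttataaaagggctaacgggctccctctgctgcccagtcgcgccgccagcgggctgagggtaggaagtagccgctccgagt
The ALDOC window held 5 matches, those of LOX, BHLHE40 and PGK1 4 each, and those of ENO2 and P4HA1 1 each. A palindromic CACGTG, as at the upstream end of the ALDOC and BHLHE40 windows, counts as 2 overlapping matches.

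Of the 38 members with a window, 35 (92.1%) held the core in at least 1 of their windows, beside 66% of genes tested on the arrays and 52.4% of all genes with a window. They were 14 of 15 members that were lower on the arrays labelled CPSF3 knockdown and 21 of 23 that were not called. P4HA2, EGLN3 and PGAM1 held none in these windows. By window the core was in 47 of 60 for the members (78.3%), in 57.1% of the windows of all genes tested on the arrays and in 48.4% of all 35116 windows. A match describes letters, not a bound site, and its absence says only that the letters are not in these windows.

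**Figure D2:**
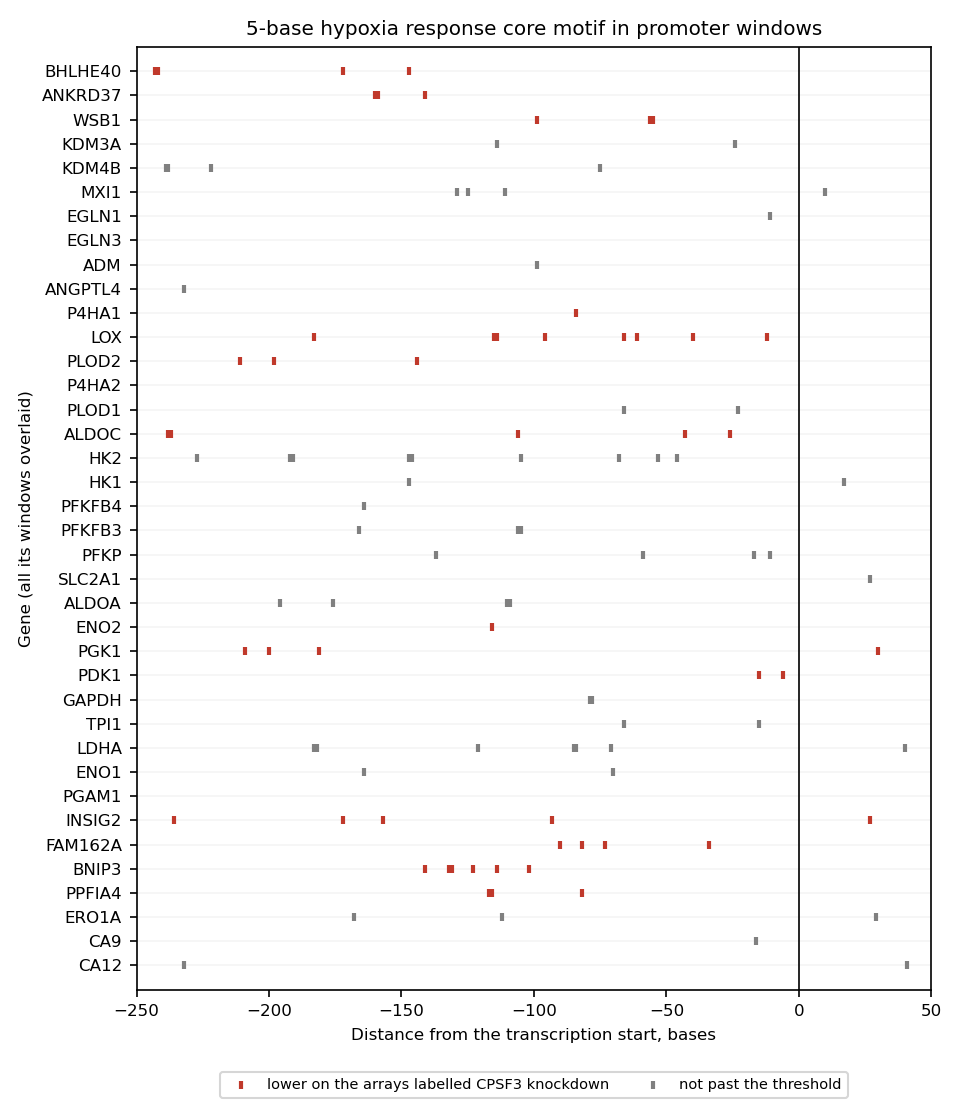
Position of each core match (ACGTG or GCGTG, either strand) relative to the transcription start, in bases, for the 38 members with a promoter window; windows of a gene are overlaid. Ticks of members lower on the arrays labelled CPSF3 knockdown (red) and of the others (grey) lie mostly before the start, and EGLN3, P4HA2 and PGAM1 have none.

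Genes that sense oxygen or feed back on HIF came first by role. BHLHE40, a basic helix-loop-helix repressor of transcription, was at 8.94, 8.50 and 8.37 on the arrays labelled CPSF3 knockdown, 8.60, 9.49 and 8.98 in the RBFOX2 knockdown and 10.35, 10.28 and 9.82 on the control arrays. All hairpin arrays were below all control arrays, and control array 3 was the lowest of its group. The difference was -1.55 ± 0.21 for the CPSF3-labelled group (2.92-fold lower, adjusted p = 0.00146, limma) and -1.13 ± 0.21 for the RBFOX2 knockdown, which just missed the threshold (adjusted p = 0.0567). ANKRD37, a small ankyrin-repeat protein induced by HIF, had 7.95, 8.0 and 8.03 in the CPSF3-labelled group, 8.11, 8.68 and 7.85 in the RBFOX2 knockdown and 9.59, 9.11 and 8.64 in control. The RBFOX2 knockdown was at -0.90 ± 0.22 (limma adjusted p = 0.116), and its array 2 overlapped the control range. The CPSF3-labelled group did not overlap control (-1.12 ± 0.22, adjusted p = 0.00635). The ANKRD37 value in the CPSF3-labelled group depended on which probe sets were kept: it was -0.35 and not called without a filter on dim probe sets, and -1.87 with only those at or above the upper quartile. WSB1, a substrate receptor of a ubiquitin ligase, was at 9.57, 9.59 and 9.73 in the CPSF3-labelled group, 9.53, 10.47 and 10.09 in the RBFOX2 knockdown and 10.15, 10.35 and 10.40 in control. It was called lower in the CPSF3-labelled group (-0.67 ± 0.18, adjusted p = 0.0281) but not in the RBFOX2 knockdown (-0.27 ± 0.18), whose arrays spread over the whole range. The median difference of single WSB1 probe sets in the CPSF3-labelled group was smaller than that of the gene level, at -0.10 over the 10 brighter and -0.18 over the 11 dimmer ones.

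Neither oxygen sensor in the set was called. EGLN1, the main HIF prolyl hydroxylase, was at 10.10, 9.98 and 9.83 in the CPSF3-labelled group, 10.06, 9.76 and 9.96 in the RBFOX2 knockdown and 10.06, 9.68 and 9.94 in control, and the groups overlapped (0.08 ± 0.13 and 0.03 ± 0.13). EGLN3, a hydroxylase gene that HIF itself induces, had 9.65, 9.59 and 9.40 in the CPSF3-labelled group, 9.51, 9.11 and 9.32 in the RBFOX2 knockdown and 8.97, 8.84 and 9.59 in control. Control array 3 lay with the hairpin arrays while control arrays 1 and 2 lay below all of them. The EGLN3 difference of 0.42 ± 0.17 in the CPSF3-labelled group was not called (adjusted p = 0.134), and without control array 3 it was 0.64 and called higher. In that setting 2581 of all genes were called higher, so the call says little about EGLN3 itself. The MYC antagonist MXI1 was at 8.67, 8.95 and 8.96 in the CPSF3-labelled group, 9.06, 8.84 and 8.87 in the RBFOX2 knockdown and 9.08, 9.0 and 8.73 in control, with overlapping groups. The histone demethylases KDM3A (-0.13 ± 0.17 and -0.31 ± 0.17) and KDM4B (-0.10 ± 0.11 and -0.04 ± 0.11) were not called either.

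Of 4 secreted signals 2 fell in the CPSF3-labelled group. STC1, a secreted glycoprotein hormone, was at 7.02, 7.82 and 7.63 on the arrays labelled CPSF3 knockdown, 8.57, 9.59 and 8.88 in the RBFOX2 knockdown and 9.99, 9.84 and 9.78 on the control arrays. The 3 groups did not overlap, with the CPSF3-labelled group lowest. Its difference of -2.38 ± 0.23 (5.21-fold lower, adjusted p = 0.000268) was the largest of the 44, and the RBFOX2 knockdown differed by -0.86 ± 0.23 (adjusted p = 0.146). That RBFOX2 difference was -1.42 and called without a filter on dim probe sets (adjusted p = 0.0354), and it was called in 4 of 21 other settings, over which it ran from -1.42 to -0.63. Between the hairpins STC1 differed by -1.52 ± 0.23 (adjusted p = 0.0124), the 1 member called in that contrast, where 0.263% of all genes were called lower; the call was lost without CPSF3-labelled array 1, without RBFOX2 knockdown array 2 and without a filter. All 11 kept STC1 probe sets were lower in both groups with no overlap with control. VEGFA, the growth factor for blood vessels, had 9.04, 9.0 and 8.98 in the CPSF3-labelled group, 9.16, 9.31 and 9.14 in the RBFOX2 knockdown and 9.64, 9.43 and 9.44 in control. These 3 groups did not overlap either, and the fall in the CPSF3-labelled group was -0.50 ± 0.11 (adjusted p = 0.0101), beside -0.30 ± 0.11 in the RBFOX2 knockdown (adjusted p = 0.238). ANGPTL4, an inhibitor of lipoprotein lipase, was at 8.29, 8.49 and 8.52 in the CPSF3-labelled group, 8.53, 7.94 and 8.39 in the RBFOX2 knockdown and 8.08, 8.63 and 8.37 in control, and its groups overlapped (0.07 ± 0.17 and -0.07 ± 0.17). The vasodilator peptide gene ADM (-0.26 ± 0.12 and -0.18 ± 0.12) was not called.

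Of 5 enzymes that modify collagen and matrix, 4 fell in the CPSF3-labelled group. P4HA1, a catalytic subunit of collagen prolyl hydroxylase, was at 8.57, 8.55 and 8.49 on the arrays labelled CPSF3 knockdown, 8.59, 9.66 and 8.98 in the RBFOX2 knockdown and 10.18, 10.20 and 9.74 on the control arrays. The CPSF3-labelled arrays lay close together, whereas the RBFOX2 knockdown arrays spread from near them to just below control. The differences were -1.50 ± 0.21 (adjusted p = 0.00147) and -0.97 ± 0.21 (adjusted p = 0.0869). LOX, the lysyl oxidase that cross-links collagen and elastin, had 9.58, 9.48 and 9.24 in the CPSF3-labelled group, 9.89, 10.15 and 9.74 in the RBFOX2 knockdown and 11.13, 10.66 and 10.64 in control. The groups were fully separated, and LOX was called in both comparisons (-1.38 ± 0.16, adjusted p = 0.000546, and -0.89 ± 0.16, adjusted p = 0.0465). P4HA2, the second catalytic subunit, was at 8.79, 8.78 and 8.52 in the CPSF3-labelled group, 9.03, 9.17 and 8.89 in the RBFOX2 knockdown and 9.40, 9.34 and 9.35 in control, which gave -0.67 ± 0.12 (adjusted p = 0.00422) and -0.33 ± 0.12. PLOD2, the lysyl hydroxylase of collagen ends, was at 9.81, 9.98 and 10.0 in the CPSF3-labelled group, 9.76, 10.46 and 10.42 in the RBFOX2 knockdown and 10.85, 10.67 and 10.74 in control. Its difference was -0.83 ± 0.16 in the CPSF3-labelled group (adjusted p = 0.00625), and -0.55 ± 0.16 in the RBFOX2 knockdown, whose array 1 was as low as the CPSF3-labelled arrays. Its relative PLOD1 was at 10.20, 10.35 and 10.11 in the CPSF3-labelled group, 10.17, 10.25 and 10.22 in the RBFOX2 knockdown and 10.02, 9.76 and 10.14 in control, above control on average in both groups (0.25 ± 0.12 and 0.24 ± 0.12) with no call. For PLOD1 every RBFOX2 knockdown array lay above every control array, and the CPSF3-labelled arrays overlapped control.

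**Figure D3:**
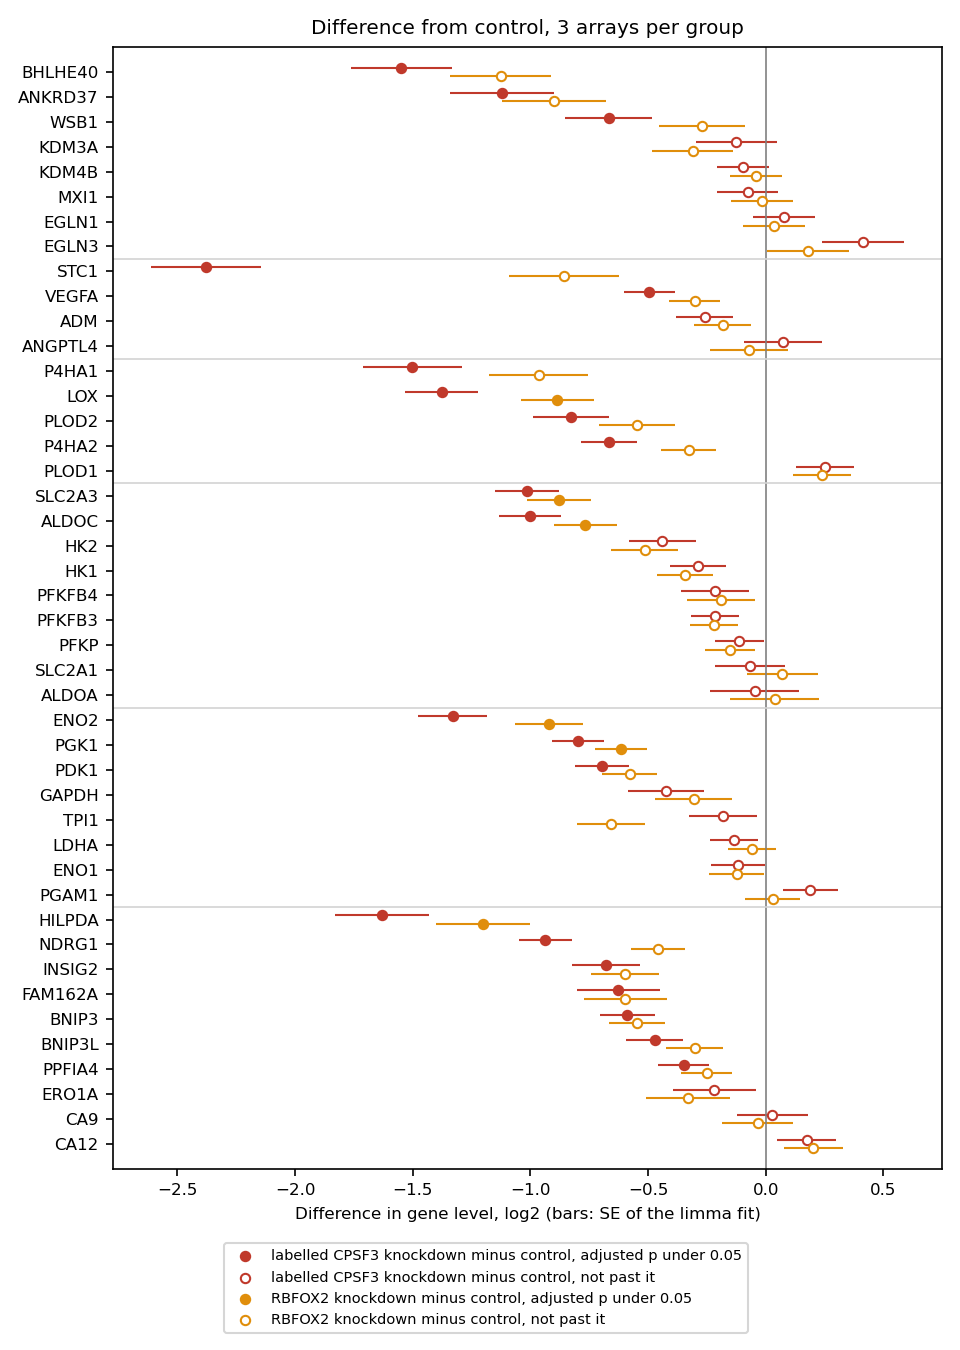
Log2 difference from control for each of the 44 genes, in 6 role groups separated by lines, for the arrays labelled CPSF3 knockdown (red) and the RBFOX2 knockdown arrays (orange); bars are the SE of the limma fit over 3 arrays per group, and filled points passed an adjusted p of 0.05. The 21 filled red and 6 filled orange points all lie left of 0, and STC1 lies farthest left at -2.38.

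Glucose uptake and the hexose steps of glycolysis held 9 genes, 2 of them called lower in each comparison. SLC2A3, a high-affinity glucose transporter, was at 9.13, 9.47 and 9.35 on the arrays labelled CPSF3 knockdown, 9.35, 9.64 and 9.37 in the RBFOX2 knockdown and 10.21, 10.24 and 10.55 on the control arrays. Every hairpin array was below every control array, and both differences passed (-1.02 ± 0.14, adjusted p = 0.00122, and -0.88 ± 0.14, adjusted p = 0.0243). Without a filter on dim probe sets the SLC2A3 differences were -0.68 (adjusted p = 0.0526) and -0.37 (adjusted p = 0.49), neither called, and control array 3 lay among the RBFOX2 knockdown arrays. A further 12 probe sets that SLC2A3 shares with another gene were left out, and cross-binding of the 11 kept ones to that relative was not tested. The transporter SLC2A1 was at 10.55, 10.57 and 10.41 in the CPSF3-labelled group, 10.58, 10.53 and 10.84 in the RBFOX2 knockdown and 10.50, 10.31 and 10.92 in control, with overlapping groups (-0.07 ± 0.15 and 0.07 ± 0.15). ALDOC, an aldolase known from brain, had 7.74, 7.71 and 7.72 in the CPSF3-labelled group, 7.92, 8.12 and 7.82 in the RBFOX2 knockdown and 8.87, 8.85 and 8.45 in control. It fell in both groups (-1.0 ± 0.13, adjusted p = 0.0012, and -0.77 ± 0.13, adjusted p = 0.0414), and the CPSF3-labelled arrays were nearly equal. The widespread aldolase ALDOA was at 10.62, 10.64 and 10.54 in the CPSF3-labelled group, 11.18, 10.51 and 10.36 in the RBFOX2 knockdown and 10.38, 10.94 and 10.61 in control, and its groups overlapped (-0.05 ± 0.19 and 0.04 ± 0.19). With only the brighter probe sets kept, at or above the upper quartile, ALDOA was at -0.59 in the CPSF3-labelled group and called.

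The hexokinases, which trap glucose in the cell, were not called. HK2 was at 9.41, 9.11 and 9.11 in the CPSF3-labelled group, 9.15, 9.21 and 9.04 in the RBFOX2 knockdown and 9.94, 9.56 and 9.45 in control. All hairpin arrays lay below the controls, and the difference of -0.44 ± 0.14 in the CPSF3-labelled group fell just outside the threshold (adjusted p = 0.0524), while PPFIA4 was just inside it. Under 21 other settings HK2 was called lower there in 6, among them the mean as gene level, quantile normalisation and the replicate block. PPFIA4 lost its call in most of those 21, so the side of the threshold does not rank these genes. In the RBFOX2 knockdown HK2 differed by -0.52 ± 0.14 (limma adjusted p = 0.147). HK1 was at 9.52, 9.56 and 9.29 in the CPSF3-labelled group, 9.54, 9.39 and 9.27 in the RBFOX2 knockdown and 9.82, 9.67 and 9.74 in control, likewise without overlap with control (-0.29 ± 0.12 and -0.34 ± 0.12). PFKP, a phosphofructokinase of the committed step, differed by -0.11 ± 0.11 and -0.15 ± 0.11, with no call. Of the enzymes that make its activator, PFKFB3 was at 9.11, 9.03 and 9.09 in the CPSF3-labelled group, 9.03, 9.12 and 9.07 in the RBFOX2 knockdown and 9.27, 9.26 and 9.34 in control, and PFKFB4 at 8.16, 7.85 and 8.03 in the CPSF3-labelled group, 8.23, 8.02 and 7.87 in the RBFOX2 knockdown and 8.39, 7.96 and 8.35 in control. Neither was called, although all hairpin arrays were below control for PFKFB3, and for PFKFB4 the groups overlapped.

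In the triose steps and the exit to lactate or mitochondria, 3 of 8 genes were lower in the CPSF3-labelled group. ENO2, the neuronal enolase, was at 9.12, 8.92 and 8.78 on the arrays labelled CPSF3 knockdown, 9.36, 9.53 and 9.16 in the RBFOX2 knockdown and 10.46, 10.33 and 10.02 on the control arrays. The groups were fully separated, and both differences were called (-1.33 ± 0.15, adjusted p = 0.000546, and -0.92 ± 0.15, adjusted p = 0.0255). The general enolase ENO1 had 12.79, 12.81 and 12.74 in the CPSF3-labelled group, 12.65, 12.82 and 12.85 in the RBFOX2 knockdown and 13.03, 12.92 and 12.73 in control, with control array 3 among the hairpin arrays (-0.12 ± 0.12 and -0.12 ± 0.12). PGK1, the first ATP-forming enzyme of glycolysis, was at 11.56, 11.68 and 11.63 in the CPSF3-labelled group, 11.68, 11.93 and 11.80 in the RBFOX2 knockdown and 12.49, 12.45 and 12.31 in control. It fell in both groups (-0.80 ± 0.11, adjusted p = 0.00147, and -0.61 ± 0.11, adjusted p = 0.0479), and the mean was lower in each for all 16 probe sets. PDK1, the kinase that holds pyruvate back from mitochondria, had 9.87, 9.90 and 9.82 in the CPSF3-labelled group, 9.87, 10.02 and 10.05 in the RBFOX2 knockdown and 10.74, 10.50 and 10.44 in control. Its difference was -0.70 ± 0.12 in the CPSF3-labelled group (adjusted p = 0.00314) and -0.58 ± 0.12 in the RBFOX2 knockdown, outside the threshold (adjusted p = 0.0631).

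TPI1, the isomerase that joins both triose branches, was the member whose mean was lower in the RBFOX2 knockdown than in the CPSF3-labelled group by the widest margin. It was at 12.22, 12.60 and 12.11 in the CPSF3-labelled group, 12.06, 11.69 and 11.76 in the RBFOX2 knockdown and 12.59, 12.53 and 12.36 in control. The 3 RBFOX2 knockdown arrays lay below all others, at -0.66 ± 0.15 from control (adjusted p = 0.0908), and the CPSF3-labelled group was 0.48 ± 0.15 above the RBFOX2 knockdown (adjusted p = 0.189), neither being called. GAPDH had 12.13, 12.18 and 12.30 in the CPSF3-labelled group, 11.91, 12.68 and 12.38 in the RBFOX2 knockdown and 12.67, 12.72 and 12.49 in control, and its difference of -0.42 ± 0.16 in the CPSF3-labelled group was not called. Over the 12 brighter GAPDH probe sets the median difference there was -0.10, against -0.42 over the 12 dimmer ones. LDHA, which makes lactate, differed by -0.13 ± 0.10 and -0.06 ± 0.10, and the mutase PGAM1 by 0.19 ± 0.12 and 0.03 ± 0.12, with no call. For PGAM1 24 probe sets shared with other genes were left out. Several glycolytic enzyme genes have processed copies elsewhere in the genome that the probes may also bind, so these levels are uncertain.

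**Figure D4:**
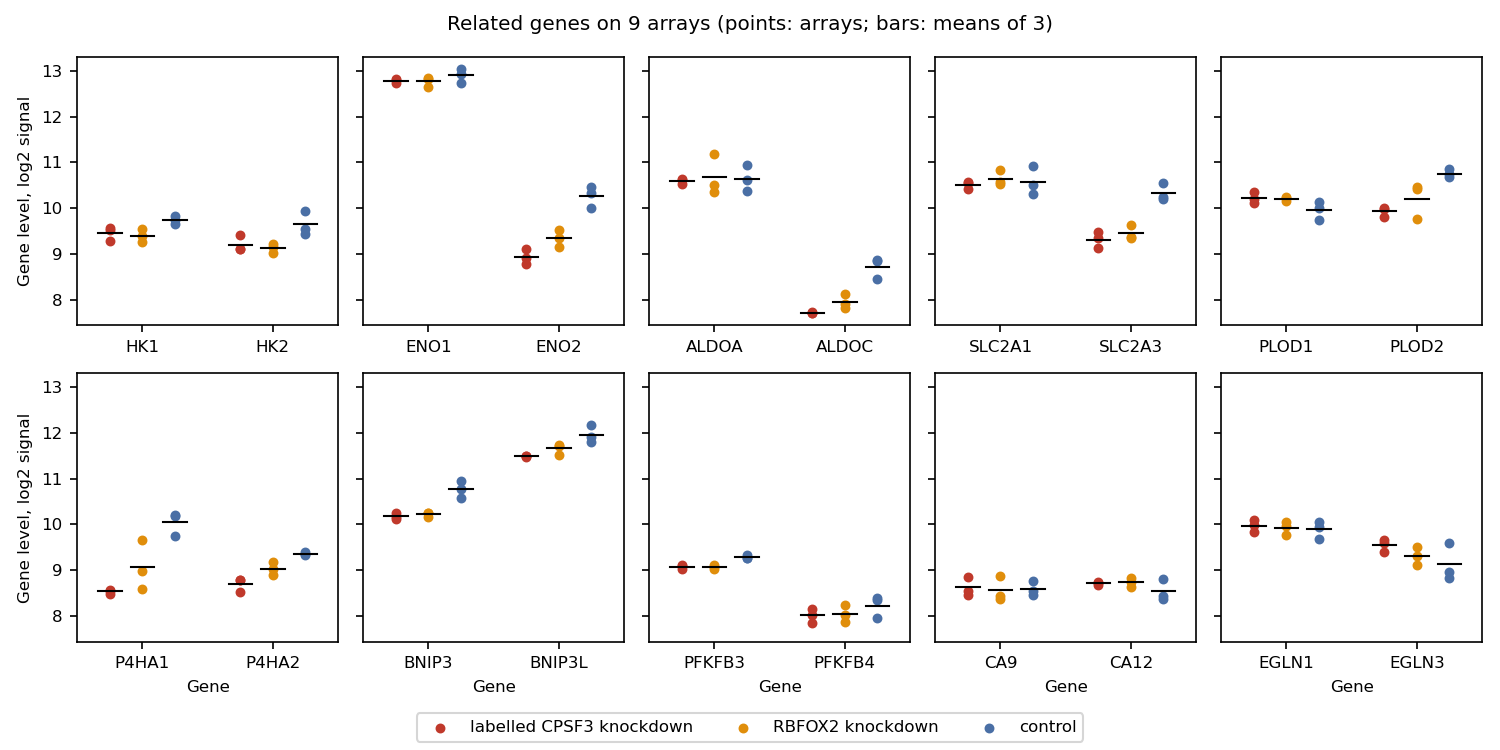
Log2 gene level of 10 pairs of related genes on 9 arrays (points) with the mean of each group of 3 (bars), for the arrays labelled CPSF3 knockdown (red), the RBFOX2 knockdown (orange) and control (blue). ENO2, ALDOC, SLC2A3 and PLOD2 are lower than control on all hairpin arrays, while for ENO1, ALDOA and SLC2A1 the groups overlap and PLOD1 has its lowest value in control; signal is not corrected for probe or transcript length, so heights of different genes are not comparable.

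The remaining members act in pH control, mitochondria, lipid droplets and the endoplasmic reticulum, and 7 of these 10 were lower in the CPSF3-labelled group. HILPDA, a lipid droplet protein that inhibits triglyceride breakdown, was at 8.53, 8.95 and 8.78 on the arrays labelled CPSF3 knockdown, 8.67, 9.50 and 9.37 in the RBFOX2 knockdown and 10.53, 10.54 and 10.08 on the control arrays. It fell in both groups without overlap (-1.63 ± 0.20, 3.1-fold, adjusted p = 0.000786, and -1.20 ± 0.20, 2.3-fold, adjusted p = 0.0398). NDRG1, a stress-responsive gene of differentiation, had 9.49, 9.48 and 9.47 in the CPSF3-labelled group, 9.93, 10.07 and 9.86 in the RBFOX2 knockdown and 10.33, 10.59 and 10.33 in control. The CPSF3-labelled arrays were nearly equal and the 3 groups did not overlap, with a difference of -0.94 ± 0.11 (adjusted p = 0.000786) beside -0.46 ± 0.11 in the RBFOX2 knockdown (adjusted p = 0.121). NDRG1 probe sets were uneven: the 16 brighter ones had a median of -1.77 and the 17 dimmer ones one of -0.68 in the CPSF3-labelled group, and with the upper quartile filter the gene was at -1.49.

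The mitophagy receptor BNIP3 was at 10.16, 10.25 and 10.12 in the CPSF3-labelled group, 10.25, 10.16 and 10.24 in the RBFOX2 knockdown and 10.95, 10.58 and 10.76 in control, with all hairpin arrays below control. It fell in the CPSF3-labelled group (-0.59 ± 0.12, adjusted p = 0.0066) and was -0.55 ± 0.12 in the RBFOX2 knockdown (adjusted p = 0.0805). Its relative BNIP3L had 11.48, 11.50 and 11.47 in the CPSF3-labelled group, 11.71, 11.74 and 11.51 in the RBFOX2 knockdown and 12.17, 11.90 and 11.80 in control, and the same order of groups (-0.47 ± 0.12, adjusted p = 0.0205, and -0.30 ± 0.12). FAM162A, a mitochondrial protein induced by HIF, was at 8.43, 7.98 and 7.88 in the CPSF3-labelled group, 8.0, 8.11 and 8.28 in the RBFOX2 knockdown and 9.10, 8.61 and 8.45 in control. Control array 1 stood above the rest, and the CPSF3-labelled group was called lower (-0.63 ± 0.18, adjusted p = 0.0301). The RBFOX2 knockdown was nearly as low, at -0.60 ± 0.18, but not called (limma adjusted p = 0.164). INSIG2, which retains sterol sensors in the endoplasmic reticulum, had 8.84, 8.61 and 8.59 in the CPSF3-labelled group, 8.43, 8.92 and 8.93 in the RBFOX2 knockdown and 9.47, 9.23 and 9.38 in control. No hairpin array reached a control array, with differences of -0.68 ± 0.14 (adjusted p = 0.00856) and -0.60 ± 0.14 (limma adjusted p = 0.113). PPFIA4, a liprin scaffold gene, was at 8.13, 8.34 and 8.22 in the CPSF3-labelled group, 8.28, 8.39 and 8.31 in the RBFOX2 knockdown and 8.67, 8.55 and 8.52 in control, with the smallest of the called differences (-0.35 ± 0.11, adjusted p = 0.0457). In the CPSF3-labelled group its 22 brighter and 23 dimmer probe sets had median differences of -0.18 and -0.20. The RBFOX2 knockdown differed by -0.25 ± 0.11 for PPFIA4 (limma adjusted p = 0.323). The oxidase ERO1A differed by -0.22 ± 0.18 and -0.33 ± 0.18 without a call. The membrane carbonic anhydrases, which buffer acid outside the cell, were not called: CA9, often used to mark hypoxic cells, was at 8.47, 8.55 and 8.85 in the CPSF3-labelled group, 8.38, 8.44 and 8.87 in the RBFOX2 knockdown and 8.55, 8.77 and 8.47 in control, and CA12 at 8.72, 8.74 and 8.68 in the CPSF3-labelled group, 8.84, 8.75 and 8.64 in the RBFOX2 knockdown and 8.38, 8.44 and 8.80 in control. The groups overlapped for both genes.

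The 21 calls of the CPSF3-labelled group were recomputed under 21 other settings. STC1, LOX, ENO2, HILPDA and NDRG1 were called in each. Of the others, PPFIA4 lost its call in 17, WSB1 and FAM162A in 9, BNIP3L in 7 and VEGFA in 3, and the remaining 11 in 1 or 2. Against control array 3 alone, a single array assumed to vary like the hairpin groups, 6 members were called (those 5 and SLC2A3), beside 91 lower and 19 higher among all genes. The difference of FAM162A ran from -1.01 to -0.35 over these settings and that of BNIP3L from -0.68 to -0.31. The count of 6 RBFOX2 calls depended on single arrays. It was 0 without control array 1, control array 2, RBFOX2 knockdown array 1 or RBFOX2 knockdown array 3, and 17 without control array 3. It was 3, 1 and 1 without CPSF3-labelled arrays 1, 2 and 3, which enter through the spread alone. Over all genes 369 were called lower and 1177 higher without control array 3, and the 17 are to be read against these. Where the count was 0, between 2 and 7 of all genes were called lower.

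Each hairpin group was also set against each control array alone. Over all genes control array 3 correlated with the RBFOX2 knockdown arrays at 0.965, 0.979 and 0.963, and with control arrays 1 and 2 at 0.957 and 0.939. The mean of the CPSF3-labelled arrays was below control arrays 1, 2 and 3 in 36, 37 and 36 of the 44 genes, with medians of -0.46, -0.35 and -0.33. Over all genes the shares below those control arrays were 46.5%, 46% and 51.6%. The RBFOX2 knockdown mean was below control arrays 1, 2 and 3 in 34, 37 and 39 of the 44 (medians of -0.37, -0.30 and -0.31), beside 44.1%, 41.2% and 55.1% of all genes. In 31 members the CPSF3-labelled mean was below every control array, and in 30 the RBFOX2 knockdown mean was (26.4% and 19.4% of all genes). Among the controls themselves, array 1 was highest in 25 of the 44 and array 3 lowest in 21, beside 30.1% and 25.3% of all genes. The part that differences between the control arrays have in the results was not tested.

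**Figure D5:**
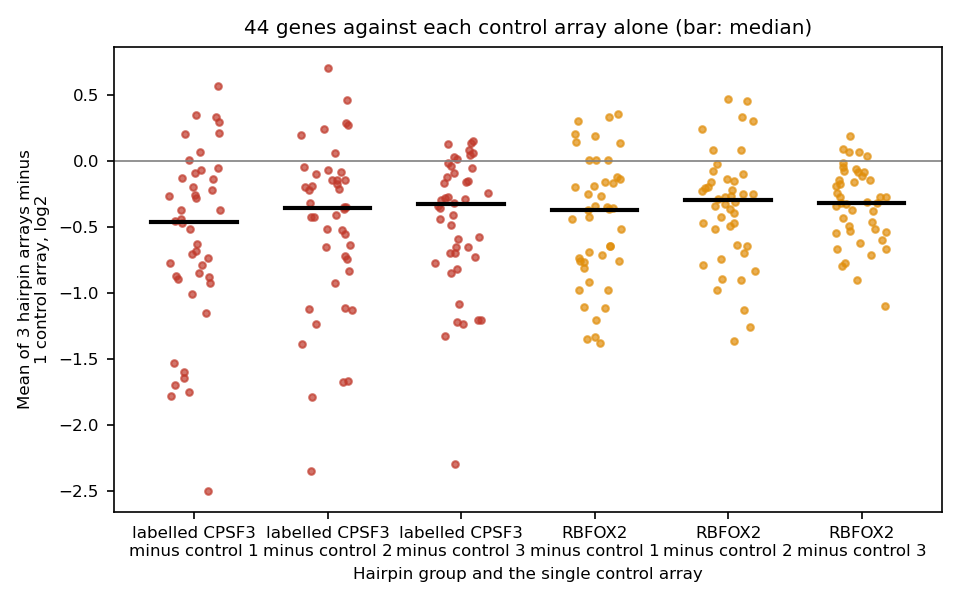
Mean of 3 hairpin arrays minus a single control array, on the log2 scale, for each of the 44 genes (points) and their median (bars), for the arrays labelled CPSF3 knockdown (red) and the RBFOX2 knockdown (orange) against control arrays 1, 2 and 3. All 6 medians lie between -0.46 and -0.30.

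Within the RBFOX2 knockdown, array 2 was the highest of its group in 17 of the 21 genes called in the CPSF3-labelled group. The share of all genes with that rank was not counted, so the rank cannot be read as particular to these genes. Between the hairpins the median over the 44 genes was -0.08 (0 over all genes), and 8 of the 44 had an unadjusted p under 0.05 there, beside 2226 of all 16748 genes.

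Genes of the same pathways outside the set were counted from 3 lists made by function. Their counts are to be read against the 4.38% of all genes called lower and 10.0% called higher in the CPSF3-labelled group. In the RBFOX2 knockdown those shares were 0.143% and 0.0299%, so that few calls or none would be usual for lists of this size. Of 15 regulators of HIF 4 rose in the CPSF3-labelled group and 0 fell: the oxygen-regulated subunit HIF1A (0.67 ± 0.17), the ubiquitin ligase scaffold CUL2 (0.64 ± 0.15) and the coactivators EP300 (0.84 ± 0.16) and CREBBP (0.72 ± 0.12). EPAS1, ARNT and VHL were at 0.06 ± 0.13, 0.01 ± 0.12 and 0.06 ± 0.13, with no call. In the RBFOX2 knockdown none of the 15 was called, and HIF1A was at -0.15 ± 0.17. Of 26 other hypoxia-induced genes measured, 5 fell and 1 rose in the CPSF3-labelled group, with a median of -0.17. They were DDIT4, an inhibitor of mTORC1 signalling (-1.82 ± 0.12), the chemokine receptor CXCR4 (-1.28 ± 0.23), ZNF395 (-0.58 ± 0.12), ANKZF1 (-0.55 ± 0.11) and QSOX1 (-0.50 ± 0.14), and RLF rose (0.66 ± 0.14). In the RBFOX2 knockdown DDIT4 (-0.90 ± 0.12) and ANKZF1 (-0.65 ± 0.11) fell. Of 24 other glycolysis and pyruvate genes 1 fell and 2 rose in the CPSF3-labelled group, namely the pyruvate dehydrogenase kinase PDK4 (-0.68 ± 0.11) and the pyruvate dehydrogenase subunits DLAT (0.59 ± 0.13) and DLD (0.70 ± 0.13), and 0 were called in the RBFOX2 knockdown (2 of 24 at an unadjusted p under 0.05, beside 2284 of all 16748 genes).

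Relative exon signal, each probe set minus its gene level on the same array, was not itself used to choose the genes. It subtracts the gene level, on whose differences the set was in effect selected, so it is not independent of that choice. A probe set that fell less than its gene level scores as a relative rise, and the shares below are a description only. Of 856 member probe sets 0 passed limma in either comparison, where 0% of 257548 passed over all genes. At an unadjusted p under 0.05 there were 169 member probe sets in the CPSF3-labelled group (19.7%, against 12.7% of all) and 119 in the RBFOX2 knockdown (13.9%, against 7.88%). With array weights the first count of passes was 34 and with a variance trend 20, and without control array 3 it was 31. Passes over all probe sets were not counted in these settings, so these counts cannot be read as particular to the members. The lowest p belonged to NDRG1 (ps3154320, -1.06 ± 0.13, adjusted p = 0.0603). Relative differences of probe sets in STC1 (ps3128073, 1.64 ± 0.23), LOX (ps2872864, 1.51 ± 0.25) and ALDOC (ps3750777, -1.08 ± 0.16) did not pass either.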

How the data were processed

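The authors deposited 1 log2 signal per probe set and array from Affymetrix Human Exon 1.0 ST arrays; per the submitters' processing notes, the tools were Affymetrix Power Tools and RMA, with build hg18. No versions are given there. RMA sets all arrays to a common distribution, which hides any shift of the whole transcriptome and compresses changes of dim probe sets. Of 1384231 probe sets 354600 had 1 gene symbol; older symbols were updated through RefSeq for GRCh38.p14, from which no gene coordinates but those of promoter windows are printed. Probe sets with a mean of at least 6.97, the median of all, were kept, and a gene level was the median of at least 3. Levels are log2 signal, with SD or SE over 3 arrays per group; the number of arrays limits the precision. All 9 arrays were fitted in 1 model of 3 groups with limma 3.58.1 (R 4.3.3), 2-sided, with Benjamini-Hochberg adjustment over 16748 genes and a threshold of 0.05. Relative exon signal used genes with at least 5 kept probe sets. With 3 arrays per group, the smallest p that exact permutation allows is 0.1. The model was tested on simulated data. Members, lists and tests were chosen with earlier results of these data known. All members can be named. Arrays are given for members called in either comparison, the extremes of each role group and related genes; others are given by difference or range, and genes of the 3 further lists by call, up to 5 each way. Alternatives were other filters, normalisations, gene levels, variance models, arrays left out, a replicate block and single control arrays.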

Additional observations from a re-analysis of the deposited data

How the results depend on the processing

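No called difference changed sign under any of 21 alternatives, and all medians over the 44 genes stayed within the spread between arrays (-0.46 to -0.29 for the CPSF3-labelled group, -0.38 to -0.28 for the RBFOX2 knockdown, -0.11 to -0.06 between the hairpins). The number of members called in the CPSF3-labelled group, 21, was 16 to 23 with 1 array left out, 15 without a filter and 31 with array weights (27 lower and 4 higher). Over all genes 306 were called lower and 776 higher without control array 1, which gave the 16. Without control array 3, which gave the 23, they were 848 and 2581. They were 528 and 1182 without a filter, and 1870 and 2947 with array weights. The number called in the RBFOX2 knockdown, 6, was 0 to 17 with 1 array left out, 1 without a filter (STC1, which is not among the 6), 11 with the mean as gene level, 0 with only the compared groups, 22 with array weights, and 13, 10 and 0 against control arrays 1, 2 and 3 alone. The number called between the hairpins, 1, was 0 to 1 with 1 array left out, 0 without a filter, 3 with the mean as gene level and 6 with array weights. In the last 3 settings 15, 87 and 305 of all genes were called lower there and 3, 53 and 296 higher. Member exon probe sets called in the CPSF3-labelled group were 0 to 31 with 1 array left out, 21 with the mean as gene level, 20 with a variance trend and 34 with array weights. In the RBFOX2 knockdown they were 0 to 1. Exon passes over all probe sets were not counted under these alternatives, so the exon counts cannot be read as particular to the members. The cause of the changes in all these counts was not tested. Same-numbered arrays did not deviate together throughout (correlations of -0.14 to 0.33). Whether they share a batch or a pairing was not tested, and deviations from means of 3 arrays cannot decide it. With the replicate block the calls were 21, 8 and 1. Over all genes the RBFOX2 calls numbered 24 lower and 5 higher, against 69 and 68 with the replicate block and 560 and 953 with array weights.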
